A study of Homo sapiens with 24 samples.

Results

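The comparison concerns how the response of parental LNCaP cells to Acetalax differed from that of parental PC3 cells. It covers every gene with enough reads in the 12 parental libraries, which were 20020 of 60660 features in the deposited count table and 12 of the 24 libraries of the study. LNCaP and PC3 are human prostate cancer lines. The libraries formed 4 groups of 3: LNCaP parental cells given 10 µM Acetalax for 4 h, untreated LNCaP parental cells, PC3 parental cells given the same dose for the same time, and untreated PC3 parental cells. LNCaP came from a lymph node metastasis, depends on androgens and was kept in RPMI-1640. PC3 came from a bone metastasis, grows without androgens and was kept in F-12. Both media held serum, and line and medium cannot be told apart. Controls received no treatment, and no vehicle is named in the labels. The labels call the libraries triplicates without naming separate cultures, so each p-value weighs a difference only against the spread of these samples, and that spread may be technical.

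Acetalax is oxyphenisatin acetate, a withdrawn laxative, and the study relates its action to TRPM4, a calcium-activated channel that passes sodium and other monovalent cations. A cell that meets a sudden ionic or proteotoxic stress first changes genes that need no new protein for their induction. These include the AP-1 and EGR early genes, targets of serum response factor, NF-kB feedback genes and heat shock chaperones. Falling sterol in the endoplasmic reticulum releases SREBP, which raises genes of cholesterol synthesis and uptake. Transcripts that turn over quickly, such as those of transcription factors and of chromatin, splicing and mRNA decay regulators, can shift within hours because their level follows any change in synthesis or decay.

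A response is the log2 fold change of Acetalax over control within a line, and a difference is the LNCaP response minus the PC3 response. A difference was called at an adjusted p under 0.05 from edgeR's quasi-likelihood test over all 20020 genes. Differences and responses are on the log2 scale with standard errors, and levels are in TPM (a length-scaled share of all transcripts). Totals of expected counts were between 40160832 and 53268294 per library. The lines matched their labels: the 10 LNCaP markers, KLK3 among them, summed to 4771 to 8349 TPM in LNCaP libraries and to 80.5 to 100.2 TPM in PC3 libraries, and the 10 PC3 markers to 3.73 to 14.0 TPM in LNCaP and 10636 to 13147 TPM in PC3. Fibroblast, endothelial and immune markers each summed to under 52.3 TPM in every library. LNCaP Acetalax 3 and LNCaP control 2 stood apart from the other LNCaP libraries and resembled each other. The hypoxia gene VEGFA stood at 746, 606 and 76.3 TPM in LNCaP Acetalax libraries against 513, 53.9 and 573 TPM in LNCaP controls, and the 30 hypoxia and glycolysis genes summed to 27602, 26135 and 11176 TPM in LNCaP Acetalax libraries against 28131, 11452 and 29884 TPM in LNCaP controls. The part of this split in the results was not tested as a cause. Without both libraries 694 of the 701 called differences were still called with the same sign. So was each of the 91 called genes that are followed through all settings below. That fit shares its libraries with the main fit and called 2985 genes (14.6%, with 7.59% higher and 7.03% lower). Most calls were therefore likely to be kept, and the 694 are no test of the split. The counts of that fit in the gene lists below are read against those shares.

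The lines answered the drug differently at 701 of 20020 genes (3.50%). The response was higher in LNCaP at 454 of them (2.27% of genes tested) and lower in LNCaP at 247 (1.23%). At least a 2-fold difference was seen at 320, of which 194 were higher and 126 lower. In bulk samples, fewer cells with a transcript and less of it per cell cannot be told apart. Most called genes, 648, reached 1 CPM (reads scaled to library size) in some group of each line, and the remaining 53 rest on very few reads in 1 of the lines. The median difference over all genes was -0.02. Over all genes 3248 had an unadjusted p under 0.05. Of the 454 higher differences, 212 were genes that rose in LNCaP and were not called in PC3, 136 were genes not called in LNCaP that fell in PC3, 44 rose in LNCaP and fell in PC3, 6 rose in both and 56 were called in neither response. Of the 247 lower differences, 167 fell in LNCaP only by these calls, 56 rose in PC3 and were not called in LNCaP, 6 fell in LNCaP and rose in PC3 and 18 were called in neither. The responses themselves were called at 1337 genes in LNCaP (6.68%; 631 rose, 3.15%, and 706 fell, 3.53%) and at 843 in PC3 (4.21%; 364 rose, 1.82%, and 479 fell, 2.39%). The share of higher against lower differences depended on the scale: with limma on log2(TPM + 1) 516 genes were called (2.58%), 200 higher (0.999%) and 316 lower (1.58%). With log2(TPM + 0.1) 378 were called (1.89%), 161 higher (0.804%) and 217 lower (1.08%). DESeq2 called 1682 (8.40%). The main fit estimates 1 spread per gene from both lines together. A gene not called in 1 line may therefore still have responded there. With only the 6 PC3 libraries, 4762 of 17611 genes were called in the PC3 response. With only the 6 LNCaP libraries, 154 of 17463 were called in the LNCaP response.

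**Figure D1:**
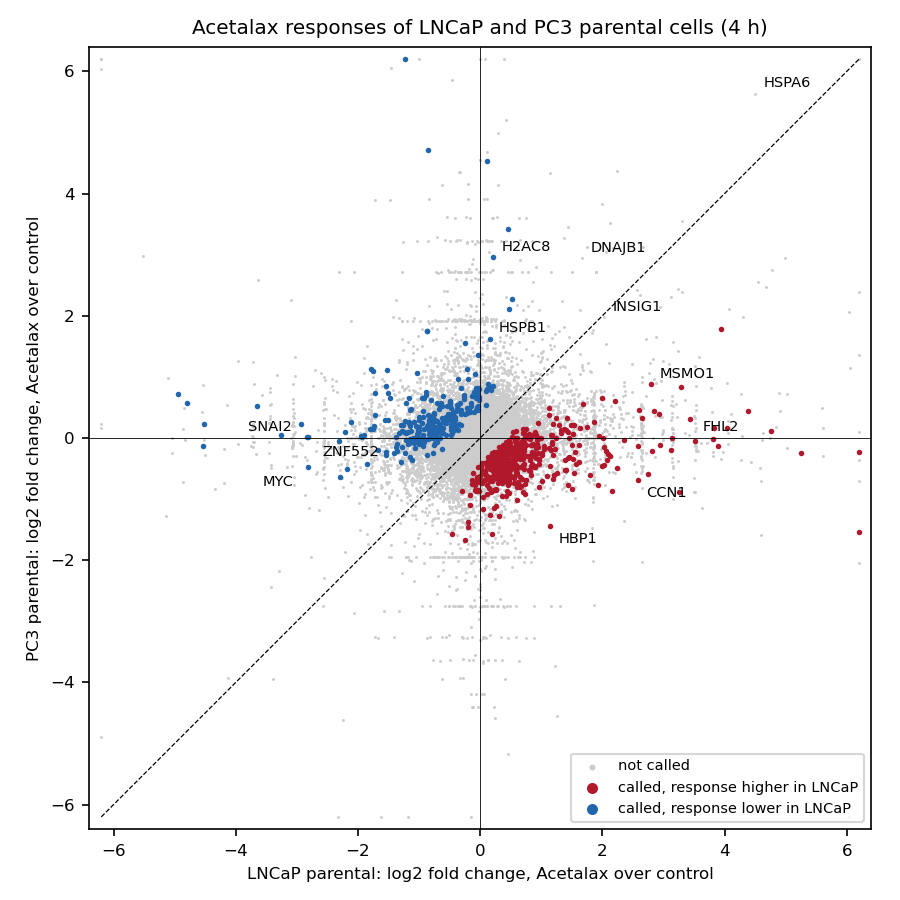
Response of each of 20020 genes in LNCaP parental cells (horizontal) against that in PC3 parental cells (vertical), as log2 fold changes of Acetalax over control, with values beyond the axes drawn at their edge. The dashed line marks equal responses; red points are the 454 genes called higher in LNCaP, most of them near or below the horizontal axis, and blue points the 247 called lower in LNCaP, most of them left of the vertical axis.

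TRPM4 (ENSG00000130529.16, GRCh38 chromosome 19, 49157741 to 49211836, plus strand) stood at 81.7, 96.3 and 94.9 TPM in LNCaP Acetalax libraries against 107, 91.1 and 98.6 TPM in LNCaP controls. PC3 Acetalax libraries held 69.9, 63.7 and 65.7 TPM against 50.6, 43.0 and 42.3 TPM in PC3 controls. Its LNCaP groups overlapped, while each PC3 Acetalax library lay above each PC3 control. The PC3 response was 0.58 (adjusted p = 0.0062) and the LNCaP response 0.08 (adjusted p = 0.733). The difference was -0.50 ± 0.13 (adjusted p = 0.0637), with a 95% interval of -0.78 to -0.21, and was not called. Single left-out replicates aside, it passed under 8 of 13 other settings, among them without the 2 libraries that stood apart, at -0.57 (adjusted p = 0.00397). It passed in 1 of the 12 fits that each left out 1 library, with adjusted p between 0.0338 and 0.181.

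Several targets of serum response factor (SRF) and of its actin-sensing coactivators MRTFA and MRTFB had a higher response in LNCaP than in PC3. Monomeric actin holds MRTF proteins back, and once released they join SRF at CArG boxes. The promoters of FHL2 and of SRF itself are printed because both genes were called and both hold such a box in the window from 250 bases before to 50 after the RefSeq start (GRCh38.p14); the capitals mark the CArG box, 1 in FHL2 at position -101 and 2 in SRF at -30 and -10 from the start, and these overlap no other motif searched.
FHL2, chr2:105438464-105438763, minus strand: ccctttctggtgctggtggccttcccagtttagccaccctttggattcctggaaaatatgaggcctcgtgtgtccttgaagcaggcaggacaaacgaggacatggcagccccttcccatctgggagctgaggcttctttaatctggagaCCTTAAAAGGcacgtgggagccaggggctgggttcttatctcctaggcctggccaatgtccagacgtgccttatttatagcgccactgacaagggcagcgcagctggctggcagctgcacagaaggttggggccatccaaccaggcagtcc
SRF, chr6:43171019-43171318, plus strand: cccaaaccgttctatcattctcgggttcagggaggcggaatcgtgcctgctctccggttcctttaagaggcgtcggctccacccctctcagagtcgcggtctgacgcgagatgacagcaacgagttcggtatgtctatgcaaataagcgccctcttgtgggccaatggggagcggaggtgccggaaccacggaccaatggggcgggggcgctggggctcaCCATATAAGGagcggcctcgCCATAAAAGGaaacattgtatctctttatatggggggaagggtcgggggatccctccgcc
A CArG box on either strand was present in 351 of 27305 RefSeq promoters (1.29%) and in 6 of the 18 with a promoter among the SRF and MRTF genes. Those were CNN2, FHL2 and SRF, which were called, and ACTG1, FLNA and TPM4, which were not. A match of letters shows no binding. FHL2, a LIM-domain partner of SRF, stood at 4.66, 4.27 and 5.40 TPM in LNCaP Acetalax libraries against 0.52, 0.4 and 0.57 TPM in LNCaP controls. The PC3 levels were 144, 145 and 148 TPM in Acetalax libraries against 155, 139 and 163 TPM in controls. Every LNCaP Acetalax library lay above every LNCaP control, and the PC3 groups overlapped at a level far above LNCaP. The LNCaP control level rests on 61 counts over 3 libraries against 651 in Acetalax libraries, and the difference was 3.56 ± 0.19 (adjusted p = 5.15e-06), or 3.34 without the 2 libraries that stood apart.

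CCN1, a secreted matrix protein and an early target of both SRF and YAP, moved in opposite directions. It stood at 51.4, 41.3 and 54.8 TPM in LNCaP Acetalax libraries against 8.59, 8.34 and 9.45 TPM in LNCaP controls. PC3 gave 296, 301 and 268 TPM with Acetalax against 498, 477 and 464 TPM in controls. The treated LNCaP libraries lay above their controls and the treated PC3 libraries below theirs, with no overlap in either line. The LNCaP response was 2.59 (adjusted p = 2.33e-06), the PC3 response -0.69 (adjusted p = 0.0114) and the difference 3.28 ± 0.18 (adjusted p = 5.15e-06). SRF itself stood at 60.6, 54.9 and 69.6 TPM in LNCaP Acetalax libraries against 20.3, 22.0 and 19.9 TPM in LNCaP controls. In treated PC3 libraries there were 38.8, 37.8 and 39.4 TPM against 27.8, 23.7 and 29 TPM in PC3 controls. It rose in both lines, with a difference of 1.13 ± 0.19 (adjusted p = 0.0094). MRTFA was 1.00 higher (adjusted p = 0.00759), since it fell in PC3 (-0.65) while its LNCaP response of 0.35 was not called. Of 22 tested SRF and MRTF genes, a list drawn up after the values were seen, 9 were called higher, against 2.27% of all genes, and 0 lower, with a median difference of 0.51. On log2(TPM + 1) and log2(TPM + 0.1) 5 were called, with medians of 0.13 and 0.31. Besides the genes above the 9 were NEXN (2.18), CNN2 (0.80), MRTFB (0.67), VCL (0.67) and LIMA1 (0.59). NEXN, CNN2, VCL and LIMA1 code for proteins that bind or anchor actin. YAP and TAZ targets, a list that shares CCN1, did not move as a group: 4 of 21 were called higher and 1 lower, with a median of 0.05 that changed sign under other settings. LATS2, a Hippo kinase, was higher by 1.35, the phosphatase PTPN14 by 0.89 and the growth factor TGFB2 by 1.94, the last from 43 against 17 counts in LNCaP (1.27 without the 2 libraries that stood apart), while tissue factor F3 was lower at -1.84. TGFB2 and F3 lost the call in 10 of the 12 fits that each left out 1 library (adjusted p up to 0.113). Single libraries decided the calls of SRF without PC3 Acetalax 1 or PC3 Acetalax 2 (up to 0.0536), LATS2 without PC3 Acetalax 1, PC3 Acetalax 2 or PC3 control 1 (up to 0.0663) and PTPN14 without PC3 Acetalax 1, PC3 Acetalax 2 or PC3 control 1 (up to 0.0684), lost at the adjusted p in brackets. LATS2, PTPN14 and F3 did not pass on the log2(TPM + 1) scale and again on the log2(TPM + 0.1) scale (adjusted p 0.0675 to 0.146). TGFB2 missed the threshold on the log2(TPM + 1) scale alone (adjusted p 0.0679). F3 fell short with all 24 libraries of the study in the fit (adjusted p 0.0744).

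Of 26 tested genes of sterol synthesis and uptake, 15 rose in LNCaP and 8 in PC3, and none fell in either. Over all genes 3.15% rose in LNCaP and 1.82% in PC3, and 2.27% were called higher in the difference. The difference was called higher in LNCaP at 4, or at 13 without the 2 libraries that stood apart, and was positive at 24. Their median response was 0.59 in LNCaP and 0.28 in PC3, and the median difference 0.42. A sterol regulatory element (TCACNCCAC, N for any base) was present on either strand in 1.15% of RefSeq promoters. In this list it was present in 1 of the 19 with a promoter, that of SREBF2. MSMO1, which demethylates a sterol intermediate, stood at 321, 301 and 185 TPM in LNCaP Acetalax libraries against 44.5, 40.2 and 35.4 TPM in LNCaP controls. Levels in PC3 were 115, 102 and 118 TPM in Acetalax libraries against 40.4, 53.9 and 39.9 TPM in controls. It rose in both lines without overlap, by a response of 2.80 (adjusted p = 2.94e-05) in LNCaP and 0.89 (adjusted p = 0.0164) in PC3, a difference of 1.91 ± 0.24 (adjusted p = 0.00283). The mevalonate kinase MVK differed by 0.92 ± 0.22 (adjusted p = 0.0483). Most members did not pass. INSIG1, which retains SREBP in the endoplasmic reticulum, stood at 491, 483 and 281 TPM in LNCaP Acetalax libraries against 144, 63.5 and 139 TPM in LNCaP controls. For PC3 the values were 187, 173 and 175 TPM with Acetalax against 36.4, 38 and 33.8 TPM in controls. It had responses of 2.03 in LNCaP and 1.97 in PC3 and a difference of 0.05. HMGCS1 and IDI1, of the same pathway, had differences of 0.70 (adjusted p = 0.0909) and 0.71 (adjusted p = 0.0524). In the 12 fits on 11 libraries, MVK missed the threshold in 10 (adjusted p up to 0.175). MVK did not pass on the log2(TPM + 1) scale and again on the log2(TPM + 0.1) scale (adjusted p 0.0556 to 0.0689). MVK missed the threshold with all 24 libraries of the study in the fit (adjusted p 0.349). MVK fell short without a filter on low counts (adjusted p 0.0531). MVK did not pass with RLE scaling (adjusted p 0.0521).

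**Figure D2:**
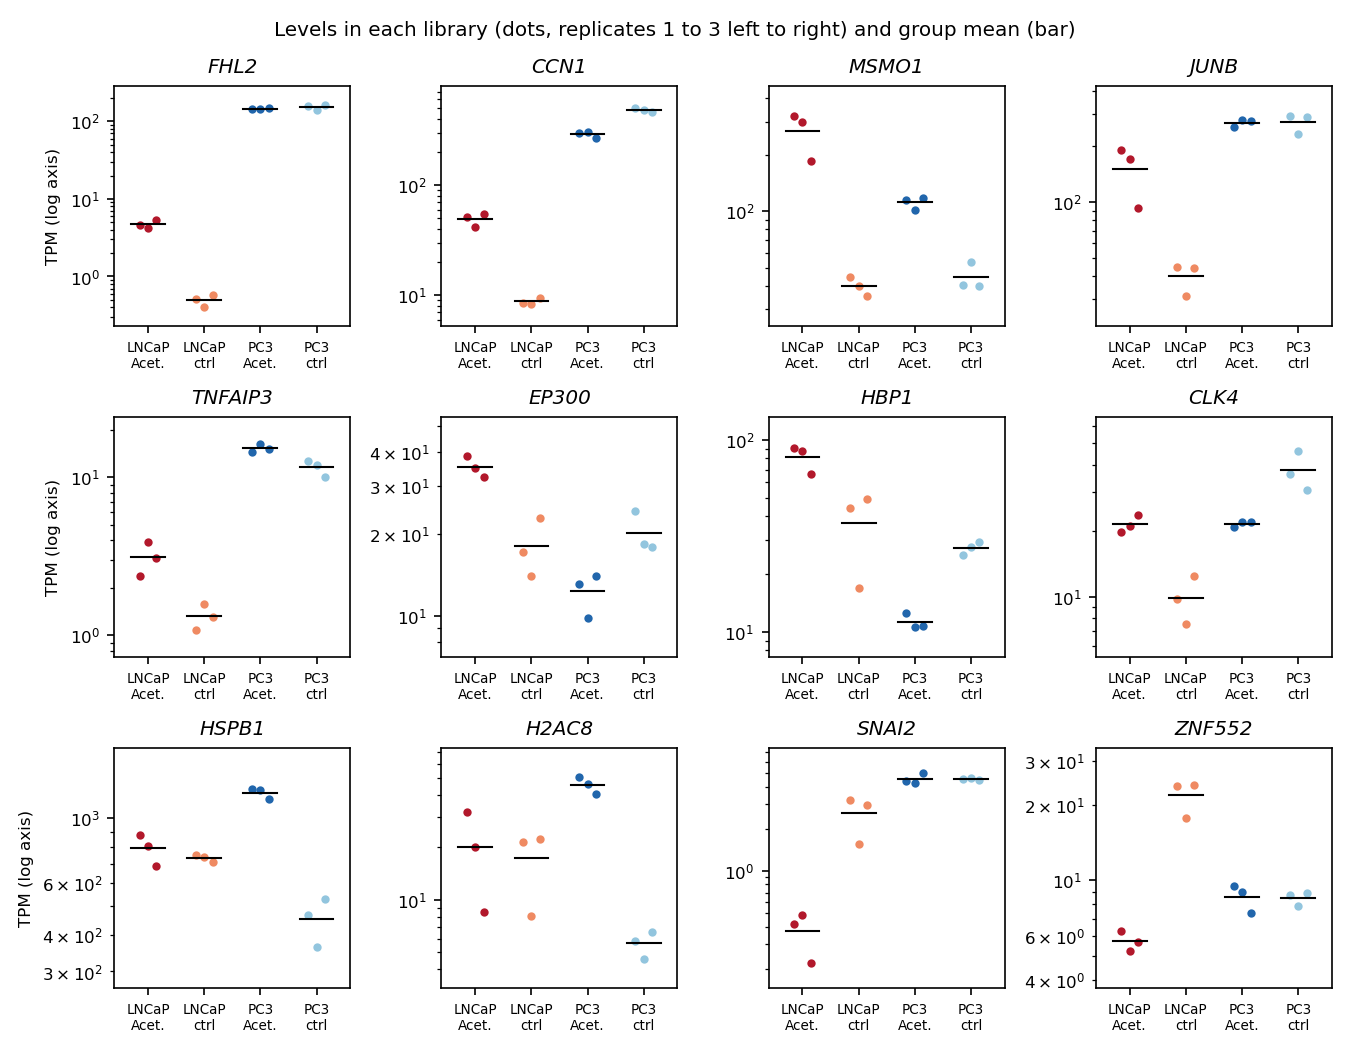
Levels of 12 genes in each of the 12 libraries in TPM on log axes, with the group mean as a bar; groups run from LNCaP Acetalax and LNCaP control to PC3 Acetalax and PC3 control. FHL2, CCN1, MSMO1, JUNB and TNFAIP3 are higher with Acetalax in LNCaP, EP300, HBP1 and CLK4 are higher with Acetalax in LNCaP and lower in PC3, HSPB1 and H2AC8 are higher with Acetalax in PC3, and SNAI2 and ZNF552 are lower with Acetalax in LNCaP.

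Several early response genes were called higher in LNCaP. JUNB, an AP-1 subunit, stood at 190.3, 171 and 92.9 TPM in LNCaP Acetalax libraries against 44.5, 31.0 and 44.1 TPM in LNCaP controls. In PC3 it stood at 255, 278 and 273 TPM in Acetalax libraries against 292, 233 and 286 TPM in controls. The LNCaP groups did not overlap, the PC3 groups did, and the untreated PC3 level already exceeded the treated LNCaP level. The difference was 2.00 ± 0.28 (adjusted p = 0.00404), and JUNB was the 1 called member of 12 AP-1 genes, whose median was 0.37. JUN rose in LNCaP (2.18) but not by the test in PC3 (0.70), and its difference of 1.48 missed the threshold (adjusted p = 0.0545). Of 34 other immediate early genes, 7 were called higher and 1 lower, against 2.27% and 1.23% of all genes, with a median of 0.25. ZFP36, which binds AU-rich mRNAs and directs their decay, stood at 44.5, 42.3 and 26.7 TPM in LNCaP Acetalax libraries against 13.5, 8.30 and 13.5 TPM in LNCaP controls. PC3 Acetalax libraries held 21.1, 20.4 and 23.0 TPM against 20.6, 16.6 and 18.6 TPM in PC3 controls. Its LNCaP groups were apart and its PC3 groups overlapped, with a difference of 1.57 ± 0.25 (adjusted p = 0.00758). The nuclear regulator IER2 differed by 1.02 (adjusted p = 0.00532) and the kinase PIM1 by 1.77 (adjusted p = 0.0494). ID1, which blocks DNA binding by helix-loop-helix partners, stood at 55.1, 48.2 and 74.2 TPM in LNCaP Acetalax libraries against 74.4, 57.8 and 91.4 TPM in LNCaP controls. The PC3 levels were 66.7, 77.8 and 76.6 TPM in Acetalax libraries against 234, 204 and 252 TPM in controls. It fell in PC3 and its LNCaP groups overlapped, a difference of 1.42 (adjusted p = 0.0194). KLF6 rose in LNCaP (2.32), but its difference of 2.46 was not called (adjusted p = 0.0621). In the ERK feedback list 0 of 20 were called higher and 2 lower. DUSP4, a phosphatase of MAP kinases, stood at 4.22, 3.58 and 3.45 TPM in LNCaP Acetalax libraries against 8.96, 9.47 and 9.83 TPM in LNCaP controls. PC3 gave 134, 131 and 129.7 TPM with Acetalax against 109, 110 and 113 TPM in controls. It was below control in LNCaP and above control in PC3 without overlap, with a difference of -1.51 ± 0.12 (adjusted p = 0.000282), and SPRY2, an inhibitor of receptor tyrosine kinase signalling, had a difference of -0.76. PIM1, ID1 and SPRY2 lost the call in 6 to 11 of the 12 fits that each left out 1 library (adjusted p up to 0.129). PIM1 and SPRY2 missed the threshold on the log2(TPM + 1) scale and again on the log2(TPM + 0.1) scale (adjusted p 0.113 to 0.736). PIM1 and SPRY2 fell short with all 24 libraries of the study in the fit (adjusted p 0.0552 to 0.147). SPRY2 did not pass without a filter on low counts (adjusted p 0.173).

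In the list of NF-kB and cytokine genes 5 of 32 were called higher in LNCaP and 0 lower, against 2.27% and 1.23% of all genes. The median of the list was 0.10, -0.05 on log2(TPM + 1), -0.08 without the 2 libraries that stood apart, and 0.02 on log2(TPM + 0.1); 1 gene was called on each of these TPM scales. NF-kB dimers are held in the cytoplasm by NFKBIA and induce their own inhibitors. The promoter of TNFAIP3, which encodes the deubiquitinating enzyme A20, is shown because it holds an NF-kB motif (GGGA, any 2 bases, then TTCC, on either strand), in capitals at position -67 (RefSeq, GRCh38.p14).
TNFAIP3, chr6:137867009-137867308, plus strand: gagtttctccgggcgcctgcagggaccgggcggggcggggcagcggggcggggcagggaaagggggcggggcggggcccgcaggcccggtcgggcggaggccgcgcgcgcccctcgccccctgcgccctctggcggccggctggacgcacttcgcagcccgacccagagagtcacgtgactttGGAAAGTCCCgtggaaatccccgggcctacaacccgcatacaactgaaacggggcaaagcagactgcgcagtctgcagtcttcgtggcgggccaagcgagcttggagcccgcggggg
On either strand the motif was present in 1.63% of RefSeq promoters and in 9 of the 28 with a promoter in this list, including those of REL, NFKB1 and NFKBIA. TNFAIP3 stood at 2.36, 3.91 and 3.09 TPM in LNCaP Acetalax libraries against 1.08, 1.59 and 1.31 TPM in LNCaP controls. In treated PC3 libraries there were 14.5, 16.2 and 15.2 TPM against 12.8, 12.0 and 10.0 TPM in PC3 controls. Acetalax libraries were above controls in both lines, with responses of 1.87 (adjusted p = 0.000137) in LNCaP and 0.27 (adjusted p = 0.414) in PC3 and a difference of 1.60 ± 0.22 (adjusted p = 0.0039). REL, a subunit, stood at 2.56, 2.51 and 2.39 TPM in LNCaP Acetalax libraries against 1.34, 0.91 and 1.75 TPM in LNCaP controls. Levels in PC3 were 1.35, 1.32 and 1.56 TPM in Acetalax libraries against 2.38, 2.37 and 1.96 TPM in controls. It rose in LNCaP and fell in PC3 with no overlap, a difference of 1.73 ± 0.24 (adjusted p = 0.00404). Smaller differences were those of the subunit NFKB1 (0.50), the inhibitor NFKBIA (0.72) and the cytokine IL11 (1.23). With 1 library left out, NFKB1, NFKBIA and IL11 missed the threshold in 9 to 11 of 12 fits (adjusted p up to 0.127). TNFAIP3, NFKB1, NFKBIA and IL11 missed the threshold on the log2(TPM + 1) scale and again on the log2(TPM + 0.1) scale (adjusted p 0.145 to 0.372). NFKBIA fell short with all 24 libraries of the study in the fit (adjusted p 0.0898). NFKB1 and IL11 did not pass without a filter on low counts (adjusted p 0.0673 to 0.186).

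In the heat shock chaperone list 5 of 28 members rose in LNCaP and 7 in PC3, against 3.15% and 1.82% of all genes. The difference was called at 1 gene in each direction, with a median of -0.14. Without the 2 libraries that stood apart 6 were called higher and 7 lower, and with a term for them 3 and 11. The fit with that term called 1857 of all 20020 genes higher and 1735 lower. HSPB1, a small heat shock protein that binds unfolded chains, is shown with its promoter because it was the called lower member; the capitals mark the heat shock element GAANNTTC at position -182 (RefSeq, GRCh38.p14).
HSPB1, chr7:76302423-76302722, plus strand: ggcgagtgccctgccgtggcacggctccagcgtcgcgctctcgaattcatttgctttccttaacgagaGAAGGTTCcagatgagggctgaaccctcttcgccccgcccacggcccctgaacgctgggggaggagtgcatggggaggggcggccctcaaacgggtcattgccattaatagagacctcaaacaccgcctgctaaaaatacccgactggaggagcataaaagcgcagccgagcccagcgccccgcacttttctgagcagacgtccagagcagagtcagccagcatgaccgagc
That element was present on either strand in 6.87% of RefSeq promoters and in 11 of the 25 with a promoter in the list. HSPB1 stood at 878, 805 and 688 TPM in LNCaP Acetalax libraries against 749, 739.7 and 709.6 TPM in LNCaP controls. For PC3 the values were 1256, 1247 and 1168 TPM with Acetalax against 466, 364 and 529 TPM in controls. In PC3 the treated libraries were all above the controls, whereas in LNCaP the groups overlapped at a level between those of the PC3 groups. The PC3 response was 1.63 (adjusted p = 0.000613), the LNCaP response 0.17 (adjusted p = 0.566) and the difference -1.46 ± 0.18 (adjusted p = 0.00274). The inducible HSP70 gene HSPA6 stood at 20.8, 18.8 and 0.7 TPM in LNCaP Acetalax libraries against 0.32, 0.72 and 0.77 TPM in LNCaP controls. In PC3 it stood at 269, 277 and 306 TPM in Acetalax libraries against 6.40, 5.60 and 5.33 TPM in controls. It responded in both lines, but the LNCaP libraries were split, with Acetalax 3 among the controls, and its difference of -1.14 was not called (adjusted p = 0.716). The co-chaperone DNAJB1 was similar, at 231, 189 and 67.6 TPM in LNCaP Acetalax libraries against 48.8, 64.7 and 50.5 TPM in LNCaP controls, with a difference of -1.27 (adjusted p = 0.156). Without the 2 libraries that stood apart HSPA6 differed by -0.39 (adjusted p = 0.36), and DNAJB1 by -0.74, which passed (adjusted p = 0.000833). DNAJB4 went the other way, at 1.46 (adjusted p = 0.0466). Histone genes, whose transcripts normally lack a poly(A) tail and are caught here only in part, had a median difference of -0.82 over 37 tested members, the lowest of the lists. Of the 37, 7 rose in PC3 and 0 in LNCaP, and 13 differences were called lower without the 2 libraries that stood apart, against 4 with them. On log2(TPM + 1) 2 were called lower, on log2(TPM + 0.1) 1, and with all 24 libraries of the study in the fit 2. H2AC8 stood at 31.8, 20.0 and 8.53 TPM in LNCaP Acetalax libraries against 21.5, 8.08 and 22.4 TPM in LNCaP controls. PC3 Acetalax libraries held 50.6, 46.0 and 40.2 TPM against 5.85, 4.57 and 6.53 TPM in PC3 controls. Its PC3 groups were far apart while its LNCaP groups overlapped, and the difference was -2.76 ± 0.56 (adjusted p = 0.0236). H2BC21 (-1.75), H2BC18 (-1.63) and H2AC11 (-1.40) were also called lower, and so was H2BU1 (-1.81), an H2B gene outside the list. Members of these clusters are near-identical, so reads may be divided among them. In the 12 fits on 11 libraries, DNAJB4, H2AC8, H2BC21 and H2BC18 missed the threshold in 7 to 10 (adjusted p up to 0.15). Calls were also lost for H2AC11 without PC3 Acetalax 1, PC3 Acetalax 2, PC3 control 1 or PC3 control 3 (up to 0.0617), with the adjusted p in brackets. DNAJB4, H2BC21 and H2BC18 missed the threshold on the log2(TPM + 1) scale and again on the log2(TPM + 0.1) scale (adjusted p 0.0746 to 0.122). H2AC8 fell short on the log2(TPM + 0.1) scale alone (adjusted p 0.0556). H2BC21, H2BC18, H2AC11 and H2BU1 did not pass with all 24 libraries of the study in the fit (adjusted p 0.0578 to 0.372).

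The lines moved in opposite directions, each by the test, at 50 genes called in the difference: 44 rose in LNCaP and fell in PC3, and 6 fell in LNCaP and rose in PC3. EP300, a histone acetyltransferase and transcriptional coactivator, stood at 38.7, 34.9 and 32.4 TPM in LNCaP Acetalax libraries against 17.2, 14.1 and 22.9 TPM in LNCaP controls. The PC3 levels were 13.1, 9.81 and 14.0 TPM in Acetalax libraries against 24.4, 18.3 and 17.9 TPM in controls. The 4 groups crossed over, since the treated LNCaP libraries exceeded their controls and the treated PC3 libraries lay below theirs. The difference was 1.75 ± 0.21 (adjusted p = 0.00269), or 1.62 without the 2 libraries that stood apart. HBP1, an HMG-box repressor of cell cycle genes, stood at 90.9, 87.5 and 66.2 TPM in LNCaP Acetalax libraries against 44.2, 16.9 and 49.2 TPM in LNCaP controls. PC3 gave 12.5, 10.7 and 10.7 TPM with Acetalax against 25.2, 27.6 and 29.3 TPM in controls. It rose in LNCaP by 1.15 (adjusted p = 0.0241) and had a PC3 response of -1.44, a difference of 2.59 ± 0.38 (adjusted p = 0.00482), although LNCaP control 2 was lower than the other controls. ZCCHC3, a zinc-finger protein that binds nucleic acids, stood at 32.2, 31.6 and 28.9 TPM in LNCaP Acetalax libraries against 21.2, 18.2 and 19.9 TPM in LNCaP controls. In treated PC3 libraries there were 10.3, 10.2 and 11.8 TPM against 20.6, 20.7 and 20.4 TPM in PC3 controls. Both lines gave groups without overlap, in opposite directions, and the difference was 1.65 ± 0.12 (adjusted p = 0.000103). ATF7IP, which stabilises the H3K9 methyltransferase SETDB1, differed by 1.59 ± 0.15 (adjusted p = 0.0009) and PPM1D, a phosphatase that turns off p53 signalling, by 1.46 ± 0.21 (adjusted p = 0.00454). IRF2, which competes with activators of interferon genes, stood at 13.5, 12.7 and 12.8 TPM in LNCaP Acetalax libraries against 9.92, 7.61 and 9.10 TPM in LNCaP controls. Levels in PC3 were 6.55, 6.58 and 6.53 TPM in Acetalax libraries against 11.1, 11.8 and 11.2 TPM in controls. The difference was 1.37 ± 0.16 (adjusted p = 0.00263). In each of the last 3 genes treated LNCaP libraries lay above and treated PC3 libraries below their controls. CCN1, HBP1, CLK4, EP300, REL, ZCCHC3, ATF7IP and PPM1D were the 8 whose smaller response of the pair was largest, and IRF2 is named from the interferon list. The 6 of the opposite kind were TTLL11, a tubulin polyglutamylase (-1.60), PARTICL (-1.60), HTR7P1 (-1.29), ZNF71 (-1.07), LRRC3 (-1.05) and INAFM2 (-0.74), named because they are few.

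**Figure D3:**
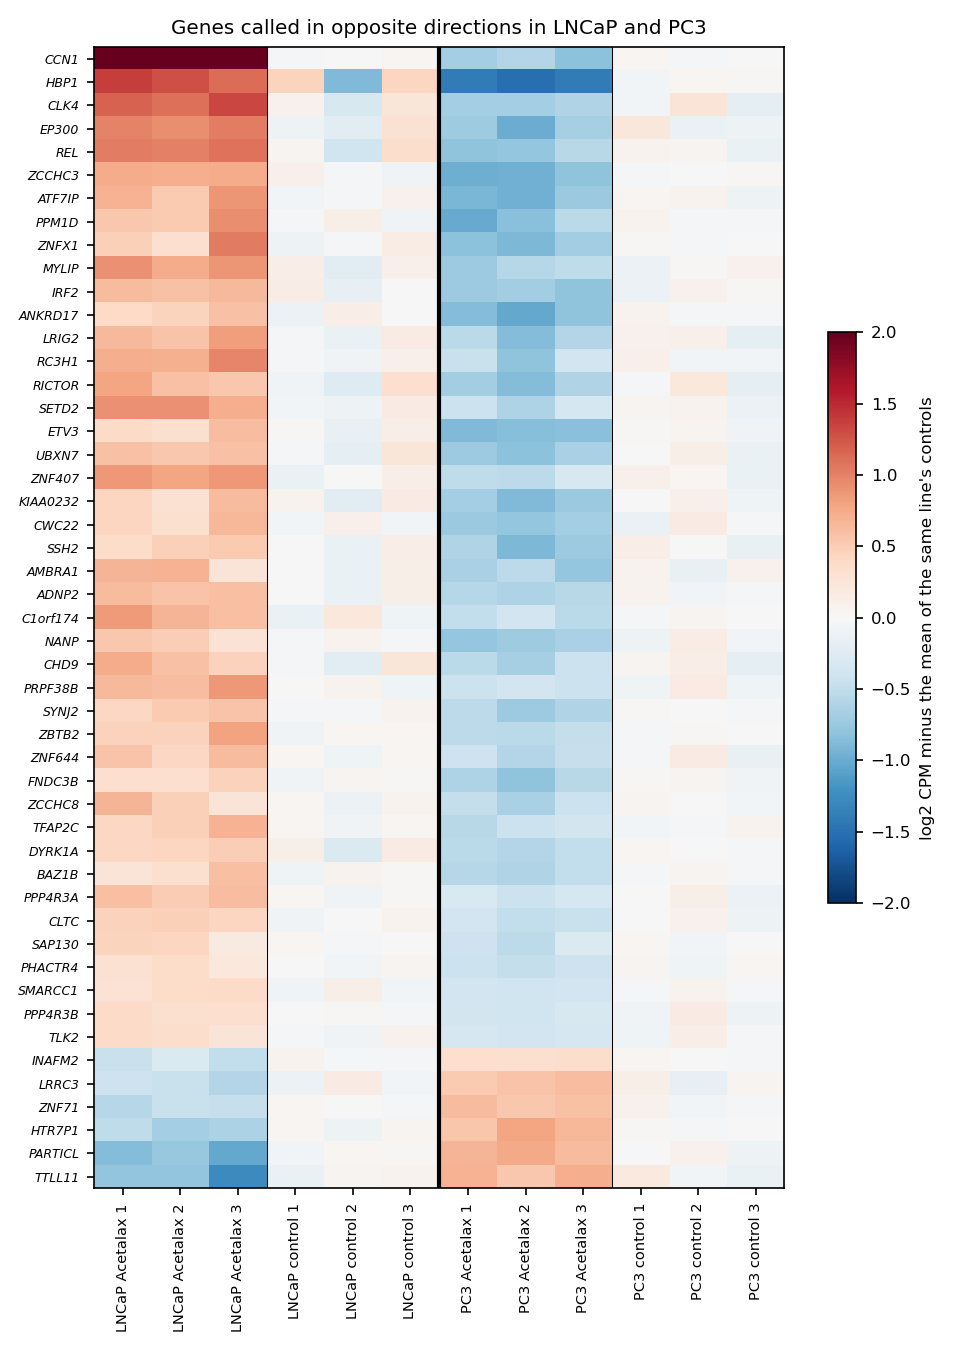
Genes called in opposite directions, 49 of the 50, 1 per row, in the 12 libraries, as log2 CPM minus the mean of the same line's 3 controls, with colours limited to the range of the bar. Each treated LNCaP column is red for the upper 43 genes and each treated PC3 column blue, and the 6 lowest rows show the reverse; HBP1 has 1 blue LNCaP control.

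The lists of genes that write, read and remodel chromatin were drawn up after the called genes were seen, so their counts describe them and support nothing. Of 50 genes for histone methylation, acetylation and reading, 20 were called higher, against 2.27% of all genes, and 0 lower, with a median difference of 0.69; 14 rose in LNCaP and 10 fell in PC3. Over all genes 3.15% rose in LNCaP and 2.39% fell in PC3. On log2(TPM + 1) 9 of the 50 and on log2(TPM + 0.1) 6 were called higher, against 0.999% and 0.804% of all genes. Of 35 remodelling genes, 13 were called higher and 0 lower, with a median of 0.59; 5 rose in LNCaP and 11 fell in PC3. The TPM scales gave 5 and 4 called higher. SETD2, the methyltransferase of H3K36, stood at 21.6, 21.2 and 17.1 TPM in LNCaP Acetalax libraries against 11.2, 10.1 and 13.0 TPM in LNCaP controls. For PC3 the values were 18.8, 15.5 and 17.5 TPM with Acetalax against 24.9, 24.6 and 22.1 TPM in controls. Groups did not overlap in either line and moved in opposite directions, a difference of 1.31 ± 0.15 (adjusted p = 0.00263). The remodeller CHD2 stood at 118, 108 and 92.7 TPM in LNCaP Acetalax libraries against 52.2, 22.2 and 45.8 TPM in LNCaP controls. In PC3 it stood at 45.4, 57.6 and 48.2 TPM in Acetalax libraries against 62.0, 50.4 and 37.0 TPM in controls. It rose in LNCaP, its PC3 groups overlapped, and the difference was 1.79 ± 0.30 (adjusted p = 0.00871). CREBBP, the paralogue of EP300, differed by 1.12 (adjusted p = 0.0184), KMT2E by 1.41 (adjusted p = 0.0186) and JMJD1C, of a demethylase family, by 1.62 (adjusted p = 0.0171). The bromodomain protein BRD2 differed by 0.77 (adjusted p = 0.00666). All of these were chosen after their values were seen. Single libraries decided the calls of CREBBP without LNCaP control 1, PC3 Acetalax 1, PC3 Acetalax 2 or PC3 control 1 (up to 0.0712), KMT2E without PC3 Acetalax 1, PC3 Acetalax 2, PC3 control 1 or PC3 control 2 (up to 0.0649) and JMJD1C without PC3 Acetalax 2 or PC3 control 2 (up to 0.0578), lost at the adjusted p in brackets. CHD2 and KMT2E missed the threshold on the log2(TPM + 1) scale and again on the log2(TPM + 0.1) scale (adjusted p 0.0877 to 0.119). JMJD1C fell short on the log2(TPM + 0.1) scale alone (adjusted p 0.0577).

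Of 36 SR splicing factors and their kinases, 12 were called higher and 1, SRSF8, lower (-0.64), with a median of 0.39. Over all genes 2.27% were called higher and 1.23% lower. On log2(TPM + 1) 7 of the 36 and on log2(TPM + 0.1) 5 were called higher, against 0.999% and 0.804% of all genes. CLK4, a kinase that phosphorylates SR proteins, stood at 19.8, 21.1 and 23.6 TPM in LNCaP Acetalax libraries against 9.81, 7.58 and 12.5 TPM in LNCaP controls. PC3 Acetalax libraries held 20.8, 22.0 and 22.0 TPM against 36.2, 46.3 and 30.7 TPM in PC3 controls. It rose in LNCaP by 1.20 and fell in PC3 by 0.67 on the log2 scale, and the difference was 1.87 ± 0.22 (adjusted p = 0.00263). Its paralogue CLK1 differed by 1.90 ± 0.44 (adjusted p = 0.0409). RSRC2, a protein rich in arginine and serine, stood at 172, 173 and 182 TPM in LNCaP Acetalax libraries against 68.2, 62.5 and 69.8 TPM in LNCaP controls. The PC3 levels were 61.2, 54.3 and 56.1 TPM in Acetalax libraries against 60.5, 72.6 and 53.4 TPM in controls. The LNCaP groups were far apart and the PC3 groups overlapped, a difference of 1.76 ± 0.15 (adjusted p = 0.00048). The nuclear speckle protein SON differed by 1.00 ± 0.13 (adjusted p = 0.00314) and RBM15, an adaptor of the RNA methyltransferase that makes m6A, by 2.00 ± 0.24 (adjusted p = 0.00269). Of 43 deadenylation and decay genes, 14 were called higher and 0 lower, with a median of 0.40 and a positive difference at 42, and 7 were called higher on each of the TPM scales. The decapping scaffold PATL1 differed by 1.32 (adjusted p = 0.0171), and PNRC1, a partner of decapping factors, by 2.20. These lists, too, were drawn up with the called genes in view. In the 12 fits on 11 libraries, CLK1 missed the threshold in 8 (adjusted p up to 0.115). Single libraries decided the calls of PATL1 without PC3 Acetalax 1 or PC3 Acetalax 2 (up to 0.0602), lost at the adjusted p in brackets. CLK1, SON and PATL1 did not pass on the log2(TPM + 1) scale and again on the log2(TPM + 0.1) scale (adjusted p 0.0651 to 0.34). CLK1 missed the threshold with all 24 libraries of the study in the fit (adjusted p 0.0559).

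Called genes differed in gene structure between the directions. Among protein-coding genes, the 436 called higher in LNCaP had a median of 14 exons in the transcript with most exons and a median span of 70.3 kb in GENCODE 29. The 201 called lower had a median of 5 exons and 14.9 kb, and all 14906 tested had 9 exons and 32.3 kb, with values for 99.9% of them. Single-exon genes made up 25 of the 201 called lower (12.4%), 2 of the 436 called higher (0.459%) and 304 of all (2.04%). Those 2 were JUNB and ZCCHC3, and the 25 included H2AC8, H2AC11, H2BC21, H2BU1, RRS1, HEXIM1 and WDR5B. By exon class, 0.658% of single-exon genes were called higher and 8.22% lower, against 5.68% higher and 0.463% lower of the genes with 20 or more exons. The median of the 304 single-exon genes, relative to the same line's controls, was -0.19, -0.26 and -0.30 in LNCaP Acetalax libraries against 0.01, 0 and 0 in LNCaP controls, and 0.04, 0.06 and 0.06 in PC3 Acetalax libraries against 0.02, -0.01 and -0.01 in PC3 controls. In LNCaP the treated libraries therefore lay below the controls and in PC3 above them, with no overlap. For genes of 20 or more exons the medians were 0.13, 0.10 and -0.02 in LNCaP Acetalax libraries against -0.01, -0.08 and 0.08 in LNCaP controls, where the groups overlapped and the 2 libraries that stood apart were the lowest, and -0.05, -0.10 and -0.04 in PC3 Acetalax libraries against 0.03, 0.02 and -0.04 in PC3 controls. Under 24 of the 25 settings tried, the genes called higher had more exons at the median (11 to 16) than those called lower (5 to 7); the remaining one, with a replicate block in each line, called 8 genes higher and 0 lower.

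**Figure D4:**
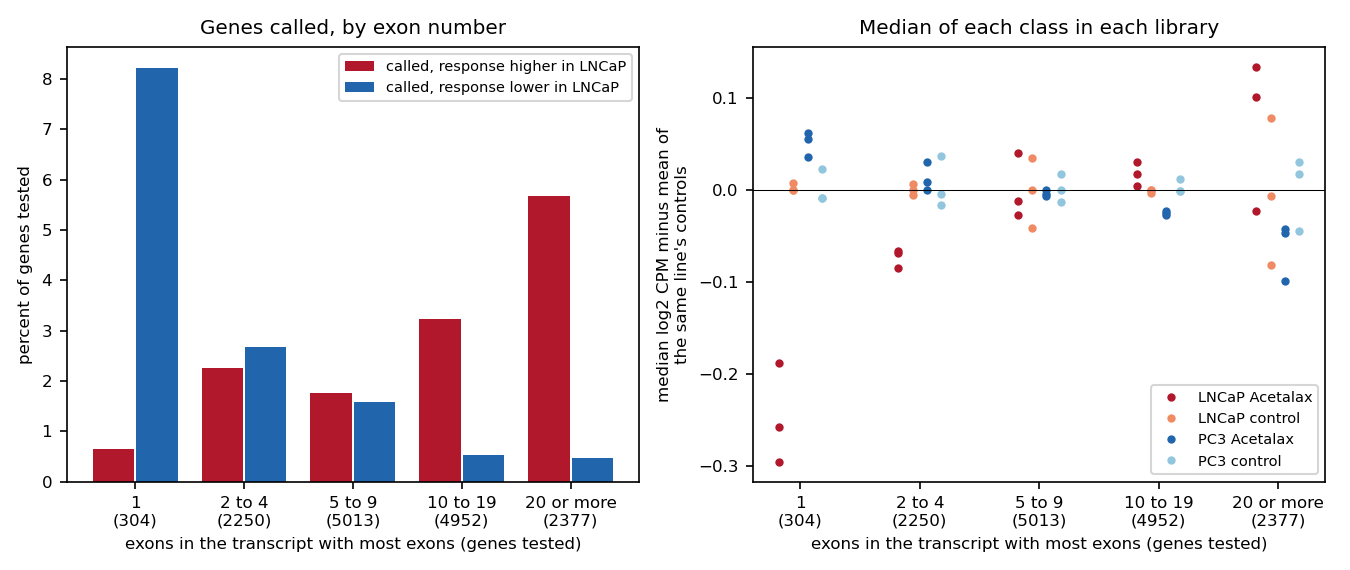
Left, percent of protein-coding genes called higher (red) and lower (blue) in LNCaP, by the number of exons in the transcript with most exons, with the genes tested in each class in brackets. Right, the median of each class in each library as log2 CPM minus the mean of the same line's controls; the LNCaP Acetalax points lie lowest for single-exon genes, at -0.30 to -0.19.

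Genes whose response was lower in LNCaP included regulators of transcription and zinc-finger genes. SNAI2, a repressor of epithelial genes, stood at 0.42, 0.48 and 0.22 TPM in LNCaP Acetalax libraries against 3.23, 1.55 and 2.93 TPM in LNCaP controls. PC3 gave 4.36, 4.25 and 4.96 TPM with Acetalax against 4.56, 4.61 and 4.47 TPM in controls. In LNCaP all treated libraries were below the controls, in PC3 the groups overlapped, and the difference was -2.85 ± 0.47 (adjusted p = 0.00804). TWIST1, a related factor by function, fell in LNCaP (-1.14), and its difference was -1.37 ± 0.30 (adjusted p = 0.032). MYC, the growth-promoting transcription factor, stood at 12.5, 11.7 and 33.4 TPM in LNCaP Acetalax libraries against 138, 165 and 139.6 TPM in LNCaP controls. In treated PC3 libraries there were 238, 239 and 233 TPM against 333, 327 and 323 TPM in PC3 controls. It was below control in both lines without overlap, but only the LNCaP response of -2.81 (adjusted p = 0.00132) passed, against -0.48 (adjusted p = 0.575) in PC3. That PC3 p-value rests on a spread estimated over both lines together, so it does not show that MYC was unchanged in PC3. The difference was -2.33 ± 0.50 (adjusted p = 0.0304), in a range of -3.11 to -2.04 with single libraries left out. In the MYC network and ribosome biogenesis list MYC and RRS1, a ribosome assembly factor (-1.30), were called lower and MXD1, which competes with MYC for MAX, higher at 2.47 ± 0.32 (adjusted p = 0.00315), out of 36 members with a median of -0.03. MXD1 stood at 18.2, 16.2 and 12.0 TPM in LNCaP Acetalax libraries against 4.32, 2.35 and 6.14 TPM in LNCaP controls. Levels in PC3 were 6.53, 5.27 and 6.13 TPM in Acetalax libraries against 9.09, 8.77 and 6.38 TPM in controls. ZNF552 stood at 6.29, 5.19 and 5.65 TPM in LNCaP Acetalax libraries against 23.7, 17.7 and 24.1 TPM in LNCaP controls. For PC3 the values were 9.50, 8.95 and 7.37 TPM with Acetalax against 8.73, 7.89 and 8.90 TPM in controls. Its LNCaP groups were well apart and its PC3 groups overlapped, a difference of -1.95 ± 0.21 (adjusted p = 0.00154). Among 478 tested genes with a ZNF symbol, 11 were called higher and 23 lower, against 2.27% and 1.23% of all genes. The 11 called higher are near the share over all genes. In LNCaP 73 of the 478 fell and 18 rose, against 3.53% and 3.15% of all genes. In PC3 23 fell and 10 rose, against 2.39% and 1.82% of all genes. Further zinc-finger genes named for size were ZNF697 (-1.79), ZNF696 (-1.61), ZBTB9 (-1.62), SP8 (-1.68) and PRDM1 (-1.66). PDE4B, a cyclic AMP phosphodiesterase (-1.94), and RGS16, a brake on G protein signalling (-1.82), complete the group. SP8, PRDM1, PDE4B and RGS16 rest on few reads in LNCaP. Over the 3 LNCaP Acetalax libraries they had 54, 46, 85 and 89 counts, against 267, 241, 345 and 215 over the 3 LNCaP controls. HEXIM1, the inhibitor of the elongation factor P-TEFb, stood at 25.7, 23.5 and 21.1 TPM in LNCaP Acetalax libraries against 42.1, 31.9 and 41.8 TPM in LNCaP controls. In PC3 it stood at 61.3, 62.5 and 66.0 TPM in Acetalax libraries against 58.5, 60.6 and 53.5 TPM in controls. It fell in LNCaP and the difference was -0.78 ± 0.13 (adjusted p = 0.0102). MAT2A, which makes S-adenosylmethionine, fell in LNCaP (-1.19) and differed by -1.09 ± 0.17 (adjusted p = 0.00648). SH3BP5L, ASB13, WDR5B and RTL10, chosen after their values were seen because each call held without any 1 library, differed by -1.24, -1.41, -1.34 and -1.01. With 1 library left out, TWIST1, MYC, RRS1 and SP8 missed the threshold in 8 to 9 of 12 fits (adjusted p up to 0.142). Single libraries decided the calls of RGS16 without PC3 Acetalax 1, PC3 Acetalax 3, PC3 control 1 or PC3 control 2 (up to 0.0611), lost at the adjusted p in brackets. SP8, PRDM1 and PDE4B fell short on the log2(TPM + 1) scale and again on the log2(TPM + 0.1) scale (adjusted p 0.0681 to 0.973). PRDM1 did not pass with all 24 libraries of the study in the fit (adjusted p 0.0588). RGS16 missed the threshold without a filter on low counts (adjusted p 0.0574).

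Other large differences in favour of LNCaP came from unrelated genes. THAP2 stood at 5.49, 5.19 and 5.41 TPM in LNCaP Acetalax libraries against 3.00, 2.11 and 2.52 TPM in LNCaP controls. PC3 Acetalax libraries held 4.79, 5.09 and 5.76 TPM against 6.70, 7.56 and 6.47 TPM in PC3 controls. Groups did not overlap in either line, and the difference was 2.40 ± 0.28 (adjusted p = 0.00263) in counts, but 1.46 on log2(TPM + 0.1). ELF3, an ETS factor of epithelia, stood at 232, 181 and 162 TPM in LNCaP Acetalax libraries against 69.3, 26.8 and 69.0 TPM in LNCaP controls. The PC3 levels were 154, 161 and 161 TPM in Acetalax libraries against 258, 228 and 262 TPM in controls. Treated libraries were above controls in LNCaP and below them in PC3, and the difference was 2.35 ± 0.37 (adjusted p = 0.00671). GBP1, an interferon-induced GTPase, stood at 1.94, 1.40 and 2.36 TPM in LNCaP Acetalax libraries against 0.52, 0.27 and 0.33 TPM in LNCaP controls. PC3 gave 2.15, 1.75 and 2.60 TPM with Acetalax against 2.44, 2.51 and 1.5 TPM in controls. It was apart in LNCaP and overlapped in PC3, a difference of 2.27 ± 0.34 (adjusted p = 0.00587). In the interferon list of 32 genes IRF2 was the 1 called and 5 genes fell in PC3, against 3.50% and 2.39% of all genes. LIPG, endothelial lipase, differed by 2.32 ± 0.31 (adjusted p = 0.00315) from low LNCaP levels, at 0.68, 0.58 and 0.65 TPM in LNCaP Acetalax libraries against 0.06, 0.19 and 0.32 TPM in LNCaP controls. AC005192.1 (ENSG00000288640.1) differed by 3.03 ± 0.42 (adjusted p = 0.00407). CREBRF, a regulator of stress signalling by CREB3, differed by 3.34, TIAM2, an exchange factor of Rac, by 2.35, C7orf61 by 2.38 and the peptide hormone gene GNRH1 by 2.7. C7orf61 and GNRH1 rest on few reads, with 179 and 218 counts over the LNCaP Acetalax libraries against 37 and 59 over the LNCaP controls. KRT81, a hair keratin that was abundant in PC3, differed by 3.88, but in LNCaP it was near 0, with 186 counts over the Acetalax libraries and 12 over the controls. SERTAD3 and SERTAD1, paralogous regulators of transcription, differed by 1.87 ± 0.18 (adjusted p = 0.000947) and 1.34 ± 0.20 (adjusted p = 0.00532), and SERTAD1 rose in both lines. MSMO1, SRF and RASSF1, a scaffold of Hippo signalling (0.65), were the others named among genes that rose in both lines and more in LNCaP. CREBRF, TIAM2, C7orf61, GNRH1, KRT81 and RASSF1 lost the call in 7 to 10 of the 12 fits that each left out 1 library (adjusted p up to 0.116). LIPG, CREBRF, GNRH1, KRT81 and RASSF1 fell short on the log2(TPM + 1) scale and again on the log2(TPM + 0.1) scale (adjusted p 0.0671 to 0.825). TIAM2 did not pass on the log2(TPM + 0.1) scale alone (adjusted p 0.0617). KRT81 and RASSF1 missed the threshold with all 24 libraries of the study in the fit (adjusted p 0.124 to 0.336). RASSF1 fell short without a filter on low counts (adjusted p 0.103).

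For 53 called genes every group of 1 line was under 1 CPM, and their fold changes rest on few reads. SLC43A3, a transporter of purine bases, had 49 counts over the 3 LNCaP Acetalax libraries against 1 over the 3 LNCaP controls, and 4195 over the 3 PC3 Acetalax libraries against 4834 over the 3 PC3 controls. Its fitted difference of 5.48 took values of 5.05 to 7.22 when single libraries were left out. With 1 count in the LNCaP controls, that size is no more than a rough value. EGR2, an early zinc-finger factor, had 35 counts over LNCaP Acetalax libraries and 0 over LNCaP controls, which is at least 12.5-fold higher against the floor of 3 counts over the group, and 97 against 111 counts in PC3. AC242842.3 had 89 counts against 0 in LNCaP, at least 31.8-fold higher, and 122 against 347 in PC3. In the other direction ZNF454 had 9 counts over PC3 Acetalax libraries against 0 over PC3 controls (at least 2.92-fold higher) and 113 against 218 in LNCaP. The pseudogene RPS16P5 had 107 against 0 counts in PC3 (at least 34.7-fold higher) and 1 against 3 in LNCaP, and its reads may come from ribosomal protein S16 or its other copies. AP003419.3 had 0 against 12 counts in LNCaP (at least 3.73-fold lower) and 43 against 25 in PC3. The folds given as at least put 3 counts in place of 0 and allow no error in the other group. They are therefore rough values and no strict bounds. With 1 library left out, EGR2, RPS16P5 and AP003419.3 missed the threshold in 10 to 11 of 12 fits (adjusted p up to 0.162). Calls were also lost for ZNF454 without PC3 Acetalax 2, PC3 Acetalax 3, PC3 control 1, PC3 control 2 or PC3 control 3 (up to 0.0714), with the adjusted p in brackets. SLC43A3, EGR2, AC242842.3 and ZNF454 did not pass on the log2(TPM + 1) scale and again on the log2(TPM + 0.1) scale (adjusted p 0.0723 to 0.943). EGR2 missed the threshold with all 24 libraries of the study in the fit (adjusted p 0.155). AP003419.3 fell short without a filter on low counts (adjusted p 0.0726). AP003419.3 did not pass with robust edgeR (adjusted p 0.051).

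The remaining lists held few or no called genes, against 3.50% of all genes. A single gene was called in each of 6 lists: ASNS, asparagine synthetase, in the integrated stress response (0.62), SLC45A3, an androgen-regulated prostate transporter (-0.70), FNIP1, a partner of folliculin at the lysosome (1.5), PPM1D in the p53 list, LRRC8E, a subunit of the volume-regulated anion channel (0.76), and CDKN1B, the cell cycle inhibitor p27 (1.21). In the lysosome and autophagy list 31 of 33 differences were positive, with a median of 0.30, and 13 were called higher and 0 lower without the 2 libraries that stood apart. LRRC8E stood at 13.4, 13.5 and 12.8 TPM in LNCaP Acetalax libraries against 13.8, 10.3 and 13.8 TPM in LNCaP controls. In treated PC3 libraries there were 16.8, 16.8 and 16.2 TPM against 27.7, 29.9 and 28.5 TPM in PC3 controls. It fell in PC3 and its LNCaP groups overlapped. Of 30 hypoxia and glycolysis genes, whose summed TPM separates the 2 libraries that stood apart from the other LNCaP libraries, 0 were called by edgeR or DESeq2 and 0 had an unadjusted p under 0.05. KDM3A and EGLN3 had the largest differences at 1.45 and -1.29 (adjusted p = 0.499 and 0.487). Without those libraries 4 were called higher and 4 lower, KDM3A at 1.39 and EGLN3 at -1.31 among them (adjusted p = 8.27e-06 and 0.000115). None of 24 unfolded protein response genes passed, with DNAJB9 at 1.25 and EIF2AK3 at 0.63 (adjusted p = 0.0626 and 0.316); 3 had an unadjusted p under 0.05 and DESeq2 called 2. Without the 2 libraries 2 were called higher and 4 lower, with DNAJB9 at 1.23 and EIF2AK3 at 0.71 (adjusted p = 1.64e-05 and 0.000366). No mitochondrially encoded gene of 13 passed in edgeR or DESeq2, while 7 had an unadjusted p under 0.05 and the median was 0.54. MT-ND6 and MT-ND2 had 1.42 and 0.69, and MT-ND6 ranged from 0.57 without LNCaP Acetalax 3 to 1.75 without LNCaP Acetalax 2. In PC3 3 of the 13 fell, and in LNCaP 0, against 2.39% and 3.53% of all genes. BBC3, which promotes apoptosis, and the pore-forming GSDMD had 1.82 and -1.04 among 24 death genes, of which 0 were called, 8 had an unadjusted p under 0.05 and DESeq2 called 3; without the 2 libraries 3 were called higher and 3 lower. The fatty acid genes SCD and ELOVL5 had 0.39 and 0.41, with 0 of 16 called, 4 at an unadjusted p under 0.05 and 2 called by DESeq2. SCD ranged from 0.055 without LNCaP control 2 to 0.69 without LNCaP Acetalax 3. Without both libraries SCD at 0.36 and ELOVL5 at 0.43 passed (adjusted p = 0.0254 and 0.0147), as did 5 of the 16 in all. Among 26 NRF2 targets and metallothioneins 0 were called, 5 had an unadjusted p under 0.05 and DESeq2 called 3, while without the 2 libraries 2 were called higher and 1 lower. MT1F had 0.88, and MT1G was at 0 counts in each PC3 library and at 86.1, 72.5 and 87.4 TPM in LNCaP Acetalax libraries against 54.8, 49.5 and 55.0 TPM in LNCaP controls. FNIP1 and CDKN1B lost the call in 7 of the 12 fits that each left out 1 library (adjusted p up to 0.0809). Calls were also lost for ASNS without PC3 Acetalax 1, PC3 Acetalax 2 or PC3 Acetalax 3 (up to 0.0734), SLC45A3 without PC3 Acetalax 1, PC3 Acetalax 2 or PC3 control 1 (up to 0.0727) and LRRC8E without PC3 Acetalax 1, PC3 Acetalax 2, PC3 Acetalax 3, PC3 control 1 or PC3 control 3 (up to 0.0733), with the adjusted p in brackets. FNIP1 and CDKN1B missed the threshold on the log2(TPM + 1) scale and again on the log2(TPM + 0.1) scale (adjusted p 0.059 to 0.112). ASNS and LRRC8E fell short with all 24 libraries of the study in the fit (adjusted p 0.201 to 0.812).

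**Figure D5:**
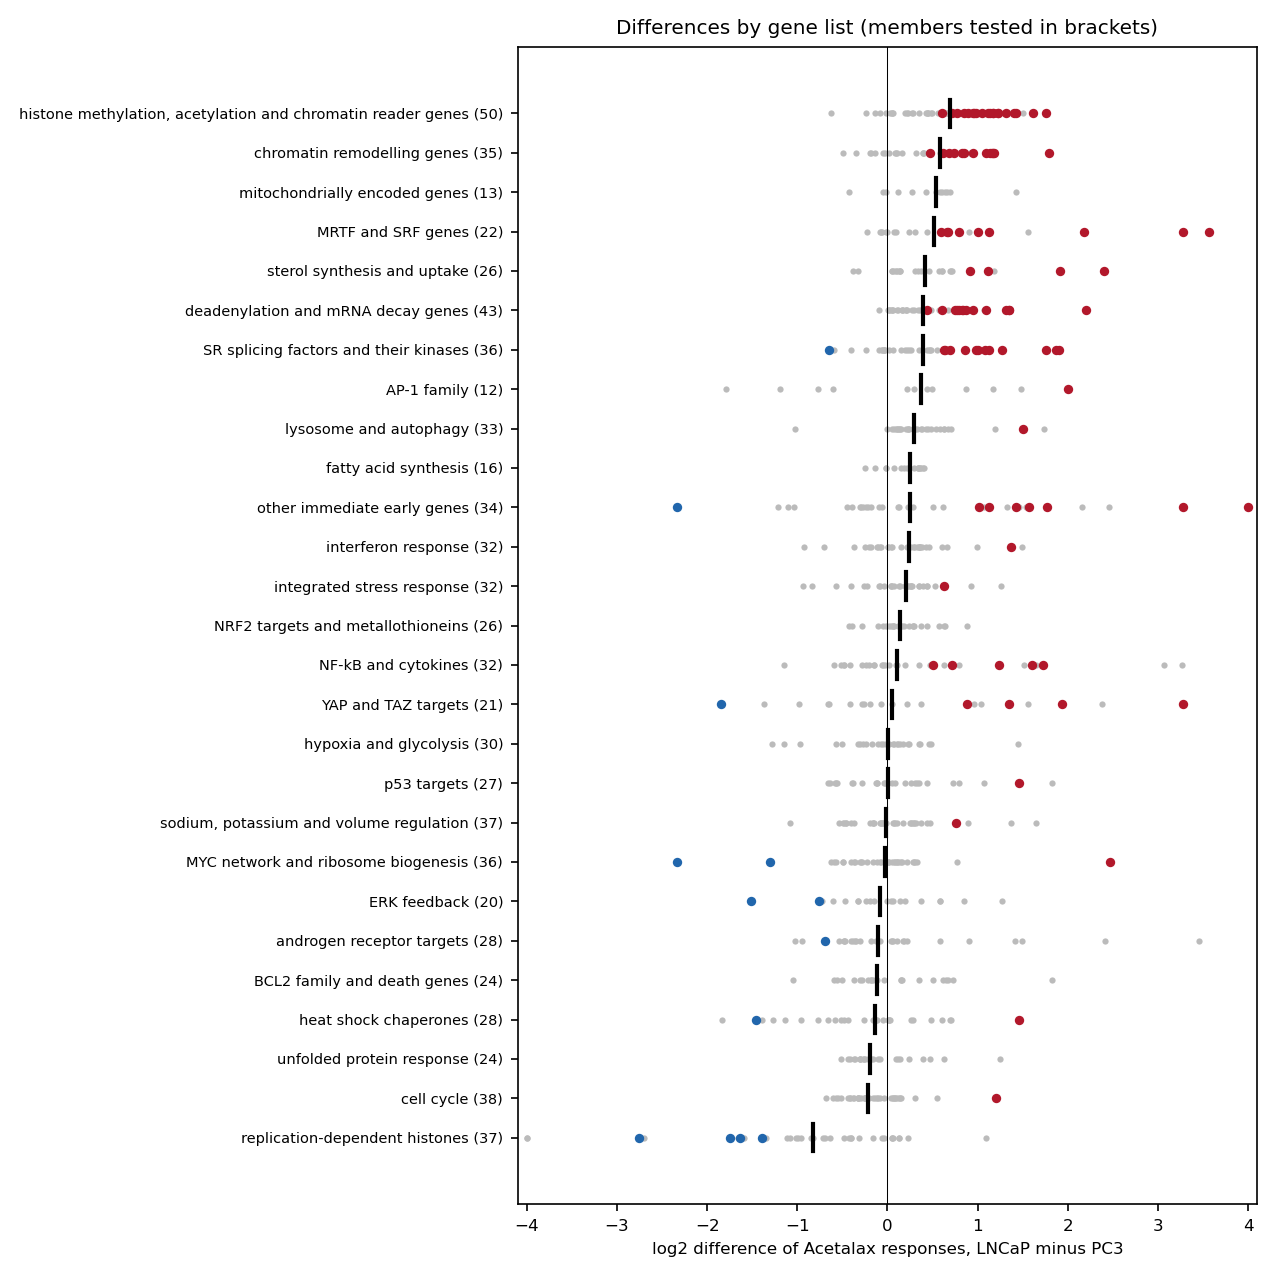
Log2 differences of the members of each gene list, with members tested in brackets, called members in red (higher in LNCaP) or blue (lower in LNCaP), others in grey, the list median as a bar and values beyond 4 drawn at the edge. Medians run from -0.82 for histones to 0.69 for the histone methylation, acetylation and reader genes; the 5 lists of chromatin, splicing, mRNA decay and SRF genes were drawn up after the values were seen.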

How the data were processed

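RNA was measured in 12 parental libraries. Per the labels' protocols, poly(A) RNA was made into directional libraries and read as paired ends. The submitters' processing notes name FastQC, STAR 2.7, RSEM and build GRCh38. Which annotation release and strand setting RSEM used is not given in the sources used here, and antisense, overlapping and near-identical genes are therefore uncertain. The authors deposited RSEM expected counts, of which 10.3% were not whole and which were rounded for testing, and TPM, used for levels and for alternatives. Of their columns, 2 belonged to no sample and were not used. Feature identifiers matched GENCODE 29 in 58385 of 60660 cases, and 1343 features shared a symbol with another, so each listed symbol was read from its most abundant feature.

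Chi-square per degree of freedom was 5.80 to 225 between replicates, above counting noise, so none was merged. Differences were tested in 1 fit of 4 group means over 12 libraries with edgeR 4.0.16 (R 4.3.3): TMM scaling, filterByExpr at a minimum count of 10, the quasi-likelihood test, and Benjamini-Hochberg adjustment over 20020 genes at 0.05. Standard errors come from the difference and its F value. All adjusted p-values are from this test unless limma 3.58.1 or DESeq2 1.42.0 is named. On simulated counts for 20020 genes with no difference except in 200, this test called 48 of 50 genes at a log2 difference of 2, 41 of 50 at -2, 18 of 50 at 1, 12 of 50 at -1 and 7 of 19820 without one. The simulation gave all libraries of a gene the same spread, with no libraries that stood apart and no other response in either line. The 200 were drawn from genes well expressed in both lines. These rates therefore check the code and do not carry over to the real libraries.

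Named genes were TRPM4, the 15 largest called differences in each direction among protein-coding genes at 1 CPM or more in some group of both lines, called members of each list (up to 6 each way, else the 2 largest), the 3 largest each way among called genes under 1 CPM in every group of 1 line, 8 with opposite responses, 4 that rose in both lines, and 28 added after their values were seen. Some genes that these rules select are not reported here. The members, lists and tests were chosen with earlier results of these data known, and 5 lists were written after the called genes were seen. Promoters are from RefSeq; those of 4 genes are printed. Alternatives were other tools, scalings, filters and sets of libraries, replicate blocks, and each library left out. Same-numbered libraries did not deviate together (correlations of -0.57 to 0.40, over 0.1 in 1 of 6 pairs), so numbers were not taken as pairs.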

Additional observations from a re-analysis of the deposited data

Results flagged for a closer look

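The tested difference of the Acetalax responses, LNCaP minus PC3, passed at 701 genes, and 91 of them were followed through all settings. Each value is the log2 difference of all 12 libraries. Some called genes that the text gives with a difference alone, such as NEXN, PNRC1, SRSF8 and PARTICL, are not among the 91. Their dependence on single libraries is not given. Of all 701 calls, the fit without PC3 Acetalax 2 alone kept 244. SH3BP5L, ASB13, WDR5B and RTL10 were added to the 91 because their calls held, so the 91 do not stand for all called genes. Of the 91, 49 kept their call in each of the 12 fits that left out 1 library. With a response higher in LNCaP, these were AC242842.3 at 9.45, SLC43A3 at 5.48, FHL2 at 3.56, CCN1 at 3.28, AC005192.1 at 3.03, HBP1 at 2.59, MXD1 at 2.47, THAP2 at 2.40 and ELF3 at 2.35. Next in size were LIPG at 2.32, GBP1 at 2.27, RBM15 at 2.00, JUNB at 2.00, MSMO1 at 1.91, SERTAD3 at 1.87, CLK4 at 1.87, CHD2 at 1.79 and RSRC2 at 1.76. Then came EP300 at 1.75, REL at 1.73, ZCCHC3 at 1.65, TNFAIP3 at 1.60, ATF7IP at 1.59, ZFP36 at 1.57, PPM1D at 1.46, IRF2 at 1.37 and SERTAD1 at 1.34. Below these were SETD2 at 1.31, IER2 at 1.02, SON at 1.00, MRTFA at 1.00 and BRD2 at 0.77. With a response lower in LNCaP, the calls that held were SNAI2 at -2.85, ZNF552 at -1.95, PDE4B at -1.94, H2BU1 at -1.81, ZNF697 at -1.79, PRDM1 at -1.66, ZBTB9 at -1.62, ZNF696 at -1.61 and TTLL11 at -1.60. Smaller in size were DUSP4 at -1.51, HSPB1 at -1.46, ASB13 at -1.41, WDR5B at -1.34, SH3BP5L at -1.24, MAT2A at -1.09, RTL10 at -1.01 and HEXIM1 at -0.78.

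A call that was lost in at least 1 of those fits, with a response higher in LNCaP, belonged to EGR2 at 6.72, KRT81 at 3.88, CREBRF at 3.34, GNRH1 at 2.7, C7orf61 at 2.38, TIAM2 at 2.35, TGFB2 at 1.94, CLK1 at 1.90 and PIM1 at 1.77. It also belonged to JMJD1C at 1.62, FNIP1 at 1.5, DNAJB4 at 1.46, ID1 at 1.42, KMT2E at 1.41, LATS2 at 1.35, PATL1 at 1.32, IL11 at 1.23 and CDKN1B at 1.21. Of lesser size were SRF at 1.13, CREBBP at 1.12, MVK at 0.92, PTPN14 at 0.89, LRRC8E at 0.76, NFKBIA at 0.72, RASSF1 at 0.65, ASNS at 0.62 and NFKB1 at 0.50. Among responses lower in LNCaP, calls lost in at least 1 fit were RPS16P5 at -9.45, AP003419.3 at -5.67, ZNF454 at -5.57, H2AC8 at -2.76, MYC at -2.33, F3 at -1.84, RGS16 at -1.82, H2BC21 at -1.75 and SP8 at -1.68. Others of this kind were H2BC18 at -1.63, H2AC11 at -1.40, TWIST1 at -1.37, RRS1 at -1.30, SPRY2 at -0.76 and SLC45A3 at -0.70. The fitted sizes of EGR2, AC242842.3, ZNF454, RPS16P5 and AP003419.3 depend on groups at 0 counts and are no measure of fold.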

How the results depend on the processing

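Against 701 genes called in the difference, 1337 in the LNCaP response and 843 in the PC3 response, DESeq2 called 1682, 2354 and 2079, and limma-voom with sample weights 3263, 4287 and 4447. Leaving out LNCaP control 2 and LNCaP Acetalax 3 together gave 2985, 3490 and 4787, and a term for these 2 libraries, chosen after seeing the data, 3592, 4651 and 4458. With all 24 libraries in the fit 1108 differences and 1402 PC3 responses were called, and with 6 libraries of 1 line alone 154 LNCaP and 4762 PC3 responses. Without the low-count filter 475 differences and 517 PC3 responses were called, and log2(TPM + 0.1) gave 378 differences. On log2(TPM + 1) 28.2% of the LNCaP calls and on log2(TPM + 0.1) 31.0% were higher, against 47.2% in counts. Leaving out single libraries gave 245 to 1088 differences (fewest without PC3 Acetalax 2, most without LNCaP Acetalax 3), 709 to 2107 LNCaP responses and 149 to 1482 PC3 responses. No called difference reversed except on log2(TPM + 1), where 2 did, among them PRDM1 at 0.0315. The uncalled INSIG1 changed sign at -0.068 with sample weights, -0.38 and -0.40 on the TPM scales, -0.044 without both libraries, and lay between -0.23 and 0.25 with single libraries left out, below 0 without LNCaP Acetalax 1, LNCaP Acetalax 2 or LNCaP control 2. On log2(TPM + 0.1), differences moved by over 1.5 times also for genes that were not near 0. Among them were TNFAIP3 to 0.76, HMGCS1 to 0.028, CLK1 to 1.10, NFKBIA to 0.45 and THAP2 to 1.46. PRDM1, which was near 0 in LNCaP, moved to -0.65. The causes were not tested. Over the named genes and all settings, 2164 values kept side and sign, 514 lost the call, 80 gained it and 8 changed sign.

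A replicate block within each line left 8 differences, 286 LNCaP and 3 PC3 responses, and a block shared by both lines 293, 824 and 347; same-numbered libraries share only a number, so this is no paired analysis. Depth limits the 53 genes under 1 CPM in 1 line, and 3 libraries a group limit small differences.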

Other observations

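Gene families picked by symbol, some of whose members are also in the lists above, behaved unevenly. Over all genes 2.27% were called higher and 1.23% lower, 3.15% rose in LNCaP and 2.39% fell in PC3. Of 10 CHD chromatin remodellers tested, 5 were called higher in LNCaP (CHD1, CHD2, CHD4, CHD7 and CHD9) and 0 lower, with a median difference of 0.65; 2 rose in LNCaP and 4 fell in PC3. Of 37 RNA-binding motif (RBM) genes 5 were called higher and 3 lower, with a median of 0.23. Among 41 ZBTB genes 6 were called higher and 3 lower, and of 16 ZSCAN genes 0 and 2, with a median of -0.39. Of 81 cytosolic ribosomal protein genes 0 were called, and of 78 mitochondrial ribosomal protein genes 0, with medians of 0.14 and 0.04. Of 281 solute carriers 7 were called higher and 2 lower, which is near the shares over all genes. These families were picked by symbol after the called genes were seen, and the counts describe them without a test.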
